A study of Homo sapiens with 15 samples.

Results

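The 8 genes described here make long noncoding RNAs of 2 kinds, chosen by name from the 23368 genes of the count table. MALAT1 and NEAT1 make RNAs that stay in the nucleus, and GAS5, SNHG1, SNHG5, SNHG6, SNHG8 and SNHG12 are snoRNA host genes, whose introns carry small nucleolar RNAs. All 8 passed the filter on low values (in every clone a mean of 10 normalized counts or more), as did 12644 genes in all.

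RNA was sequenced from 3 clones of brain metastatic breast cancer cells, each grown from a single sorted cell and each carrying a doxycycline-inducible, FLAG-tagged RBM47, a gene for an RNA-binding protein. The transgene was wild type RBM47 in WT6 and WT10 and the frameshift mutant RBM47-I281fs in MUT3. Each clone was sequenced without doxycycline and at 1, 2.5, 5 and 25 ng/ml, with 1 library per clone and dose, so that there were 15 libraries and no replicates. The labels give MDA231 as the line of every clone, whereas the study's methods derive WT6 from a different brain metastatic line, CN34-BrM2, and WT10 and MUT3 from the brain metastatic derivative of MDA231. How long the cells were kept in doxycycline before sequencing is not given in the sources used here. No library came from cells without a transgene, and each genotype with its parental line is represented by single clones, so that clone, line and transgene cannot be told apart.

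MALAT1 RNA accumulates in nuclear speckles, bodies rich in splicing factors, while NEAT1 RNA is the scaffold of paraspeckles, where proteins such as SFPQ, NONO and PSPC1 gather. The spliced RNAs of snoRNA host genes have a different fate. They reach the cytoplasm, where ribosomes engage their short reading frames and nonsense-mediated decay removes them, while the snoRNAs released from their introns guide the chemical modification of ribosomal RNA. Many host genes begin transcription with a run of pyrimidines, the 5′ terminal oligopyrimidine start that they share with ribosomal protein genes.

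The starts of the host transcripts are shown so that this feature can be seen gene by gene. The first 30 bases, on the strand of the gene, were taken from RefSeq (GRCh38.p14), where 5 of the 6 host genes were compared. Capitals mark a C followed by at least 4 further pyrimidines (C or T) from the first base on, sought on the transcribed strand only.
SNHG12, chr1:28581844-28581873, minus strand: CCTTTCTCCCCgccgcattcccggtgtcga
SNHG5, chr6:85678704-85678733, minus strand: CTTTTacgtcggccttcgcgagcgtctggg
SNHG1, chr11:62855856-62855885, minus strand: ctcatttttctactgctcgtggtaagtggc
SNHG8, chr4:118278762-118278791, plus strand: cacattcgggaagcgtcgggattaggtgaa
GAS5, chr1:173869016-173869045, minus strand: agatgtgtttattttggagcctacaccagc
SNHG12 and SNHG5 began with such a run, of 11 and 5 pyrimidines, as did 4.07% of the 35116 starts in the table. SNHG1, SNHG8 and GAS5 had none at the annotated first base, which says nothing of starts a few bases away.

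MALAT1 differs from the host genes at its other end. Its mature RNA is not polyadenylated but ends in a triple helix next to an A-rich tract encoded in the genome, and the libraries were made from RNA selected for poly(A). The longest run of A within the gene on hg19 (GRCh37) is shown in capitals in its 30-base surroundings, since it is the part of the RNA that oligo(dT) could hold.
MALAT1, chr11:65273555-65273584, plus strand: cctttttctagcttAAAAAAAAAAAAAgca
The run held 13 A, against 8 in the next longest of the gene.

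On hg19 with the GENCODE annotation, the nuclear genes lie close together on chromosome 11. MALAT1 spans chr11:65265111-65275544 and NEAT1 chr11:65190245-65213011, both on the plus strand and both annotated as lncRNA. Their canonical transcripts have 1 exon, of 10434 nt for MALAT1 and 22743 nt for NEAT1. The host genes are spliced, with between 3 and 12 exons in the canonical transcript. They lie at chr1:173827697-173838020 (GAS5), chr11:62619450-62623425 (SNHG1), chr6:86360209-86388650 (SNHG5), chr8:67832796-67838633 (SNHG6), chr4:119199858-119206471 (SNHG8) and chr1:28905050-28909644 (SNHG12). Genes on the opposite strand overlap MALAT1 (TALAM1), GAS5 (GAS5-AS1 and ZBTB37), SNHG6 (C8orf45, now MCMDC2), SNHG8 (PRSS12) and SNHG12 (TRNAU1AP). Since it is not stated whether the libraries kept the strand, reads from these pairs may not be separable.

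The libraries held between 14955172 and 44771871 reads on genes, and 3 reads were worth between 1.19 and 4.09 in normalized counts, the deposited unit (the reads of a library over its size factor). RBM47 rose from 258 untreated to 10425 at 25 ng/ml in WT6, from 168 to 19877 in WT10 and from 73.8 to 22084 in MUT3. The WT6 library at 5 ng/ml stood apart from the dose order, with 3966 normalized counts of RBM47 against 8094 at 2.5 ng/ml. In WT6 at 5 and 25 ng/ml short transcripts were also higher and long transcripts lower than in untreated WT6, as described below, and the WT6 results below are followed by their values without these libraries. The epithelial KRT8 and the mesenchymal VIM were detected in all clones (medians between 8424 and 15105 and between 51083 and 96668). The epithelial CDH1 had medians of only 7.21 in WT6, 1.08 in WT10 and 0 in MUT3. PTPRC and PECAM1, markers of leukocytes and endothelium, never exceeded 9.19. COL1A1, looked at as a marker of fibroblasts, lay between 178 and 493, and which cells made it was not tested.

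The first question was whether the noncoding RNAs changed with the dose of wild type RBM47. Slopes are given as the change of log2(normalized count + 1) per unit of log2(dose + 1), where the span from 0 to 25 ng/ml covers close to 5 units, and were tested with limma over all 12644 genes. MALAT1 and NEAT1 rose with dose in WT10 cells, where none of the 6 host genes passed the test and 20.0% of all genes did. In WT6 cells NEAT1, GAS5, SNHG8 and SNHG12 rose, in a clone in which 57.5% of all genes passed. In MUT3 cells 0 of the 8 genes and 0% of all genes passed, although MALAT1 was lower at every successive dose. RBM47 itself, which went from 73.8 to 22084 counts in MUT3, was among the genes that did not pass. The 0% is therefore no evidence that this clone was unchanged.

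MALAT1 in WT10 cells counted 2482 without doxycycline and 3713, 3535, 4581 and 10613 at the 4 doses in increasing order. The library at 25 ng/ml held 4.28 times the untreated level (95% counting interval of the count, 10408 to 10820), and all 4 treated libraries were above the untreated library. The slope was 0.43 ± 0.09 (SE, adjusted p = 0.00322, limma), which ranked 72 among the 12644 genes, counted from the highest. Between 0 and 5 ng/ml the counts were also ordered upwards except at 2.5 ng/ml, but without the library at 25 ng/ml the slope was 0.31 and no longer passed (adjusted p = 0.375, limma). Only 0.0475% of all genes passed in WT10 without that library.

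In MUT3 cells the order of MALAT1 was the opposite. Untreated MUT3 cells had 7339 counts, and the libraries at 1, 2.5, 5 and 25 ng/ml had 4318, 2208, 2024 and 1833. The count at 25 ng/ml was 0.25 of the untreated count, and the largest steps lay between 0 and 2.5 ng/ml. RBM47 over the same 3 lowest doses was at 73.8, 92.1 and 336 counts, and MALAT1 at 1 ng/ml was at 0.59 of its untreated level. That ratio compares single libraries, with 59 reads of RBM47 untreated and 83 at 1 ng/ml. The untreated MUT3 library also had the highest share of fragments assigned to no gene in its clone (58.84%, against 57.72% at 1 ng/ml). Whether the first step of MALAT1 belongs to the dose or to the untreated library was not tested. Of all genes tested, 0.989% were lower at every successive dose in MUT3, and 0.134% spanned as wide a range between their highest and lowest MUT3 library. The slope was -0.43 ± 0.09 (SE), with an adjusted p of 0.285 (limma), in a clone in which 295 genes had an unadjusted p under 0.05. It was -0.28 without the untreated MUT3 library and -0.77 without that at 25 ng/ml, and passed in neither case (adjusted p = 1 and 0.108, limma).

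In WT6 cells MALAT1 followed no order. It counted 4511 untreated and 7161, 6465, 4792 and 9131 with increasing dose, with a slope of 0.16 ± 0.08 (SE, adjusted p = 0.127, limma). The library at 5 ng/ml was close to the untreated one, and without it the slope was 0.18 and passed (adjusted p = 0.0324, limma). Without the library at 25 ng/ml it was 0.03 (adjusted p = 0.889, limma), and without both it was 0.29 (adjusted p = 0.465, limma).

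**Figure D1:**
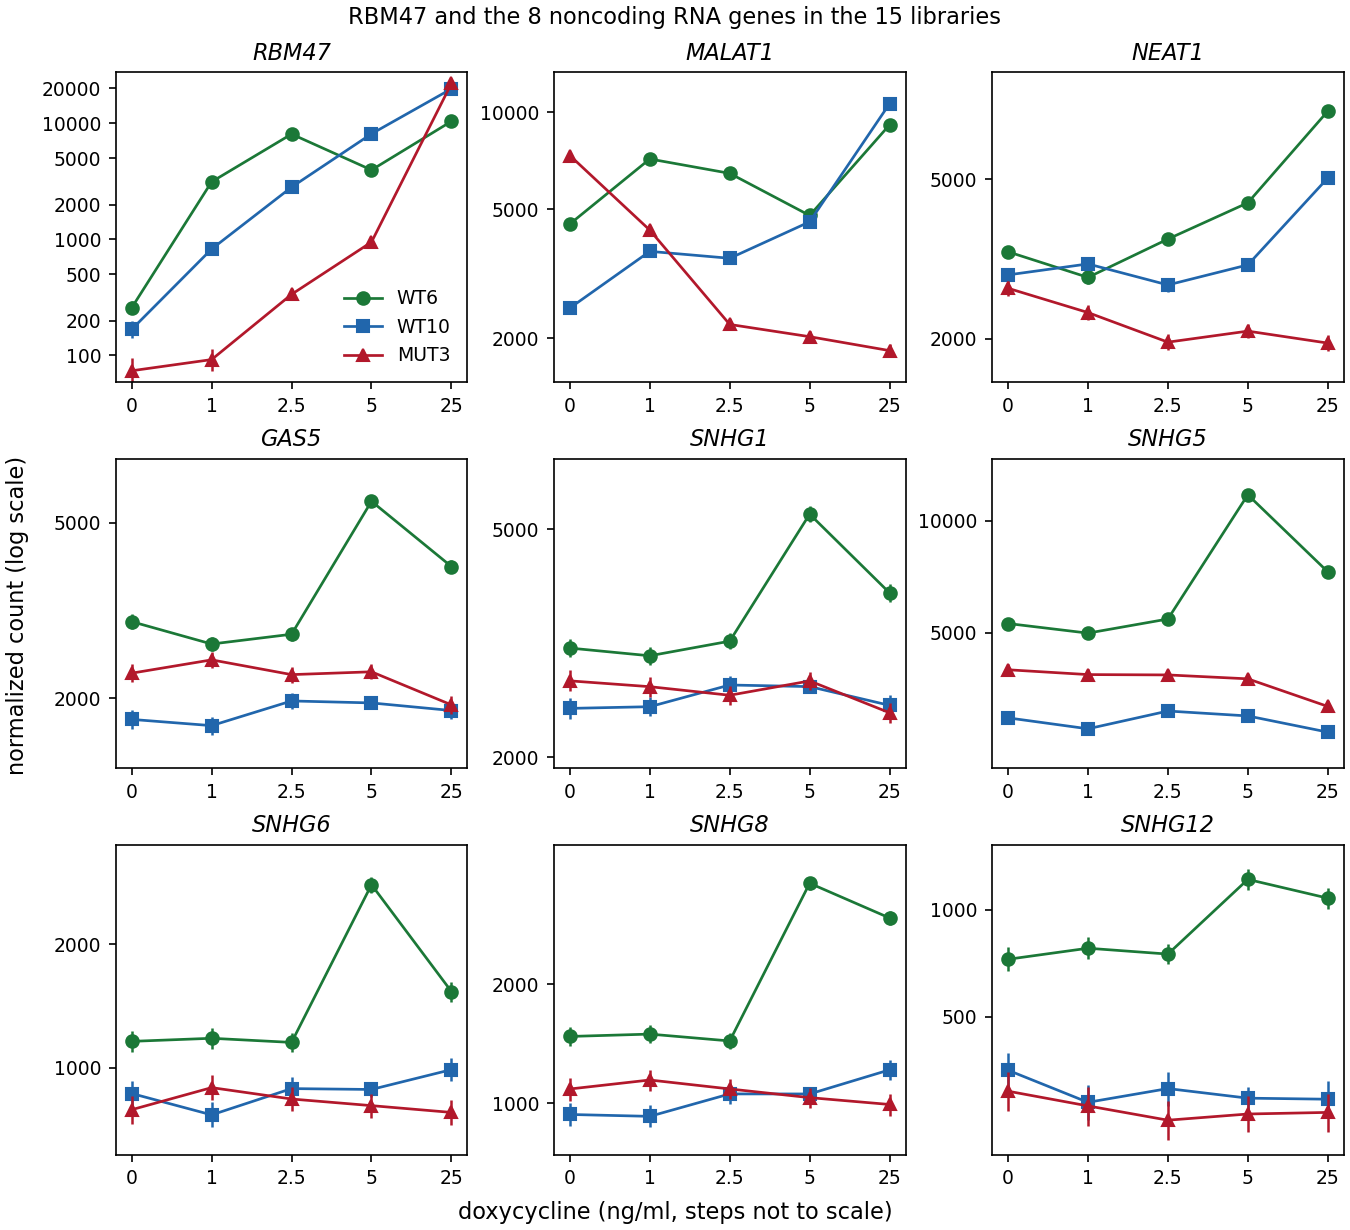
Normalized counts (log axis) of RBM47, MALAT1, NEAT1 and the 6 snoRNA host genes against doxycycline (ng/ml, steps not to scale) in WT6 (circles), WT10 (squares) and MUT3 (triangles), 1 library per point; vertical lines are 95% Poisson counting intervals, which are mostly smaller than the points. MALAT1 ran from 2482 to 10613 in WT10 and from 7339 down to 1833 in MUT3, while each host gene had its highest count in WT6 at 5 ng/ml and stayed within 1.31-fold in WT10 and MUT3.

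NEAT1 had its highest count in the 25 ng/ml library of WT6 and of WT10. In WT10 cells it counted 2885 untreated and 3073, 2724 and 3056 at the next 3 doses, then 5029 at 25 ng/ml, 1.74 times the untreated level. The first 4 WT10 libraries thus lay close together and only the library at 25 ng/ml stood apart. The slope was 0.17 ± 0.05 (SE, adjusted p = 0.0204, limma), and it was 0.0089 without that library (adjusted p = 0.973, limma). In WT6 cells NEAT1 counted 3294, 2844, 3543, 4363 and 7377 with increasing dose, 2.24 times the untreated level at 25 ng/ml. Here the counts were higher at each step from 1 ng/ml on, with a slope of 0.28 ± 0.05 (SE, adjusted p = 0.000229, limma) that was 0.17 without the library at 25 ng/ml (adjusted p = 0.111, limma). In MUT3 cells it counted 2672, 2325, 1962, 2090 and 1952, and the treated libraries all lay below the untreated one (slope -0.09 ± 0.05 (SE), adjusted p = 1, limma).

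The test of the difference between clones bears on what the nuclear RNAs did with wild type against mutant RBM47. Between WT10 and MUT3, clones of the same line by the study's methods, the slopes differed for MALAT1 and NEAT1 and for none of the 6 host genes, in a comparison in which 5.62% of all genes passed. For MALAT1 the difference was 0.85 (95% interval 0.59 to 1.11, adjusted p = 0.00303, limma), which ranked 8 among all genes, counted from the highest. For NEAT1 it was 0.26 (95% interval 0.11 to 0.40, adjusted p = 0.0378, limma). Without WT10 at 25 ng/ml neither difference passed (0.73, adjusted p = 0.219, for MALAT1 and 0.10, adjusted p = 0.645, for NEAT1, limma). The NEAT1 difference was also lost without WT10 at 1 ng/ml (0.27, adjusted p = 0.0644) or without MUT3 untreated or at 1, 5 or 25 ng/ml (0.22 to 0.32, adjusted p between 0.0597 and 0.425, limma). With the mean slope of both wild type clones in place of WT10, MALAT1 (0.72, adjusted p = 0.000829) and NEAT1 (0.31, adjusted p = 0.00265) again differed from MUT3 and the host genes did not (limma, 24.6% of all genes passed). This contrast with the hosts depended on single libraries. Of the 15 fits that each left out 1 library, GAS5, SNHG1, SNHG5 and SNHG6 passed in 2 each, SNHG8 in 3 and SNHG12 in 0. Among these fits were those without WT6 at 5 or at 25 ng/ml.

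The difference in the MALAT1 slopes went with a difference in the starting level. Untreated, the fitted MALAT1 level was lower in WT10 than in MUT3 by 1.19 on the log2 scale (-1.19 ± 0.31 (SE), adjusted p = 0.00912, limma), the only 1 of the 8 genes to differ, against 28.2% of all genes. At 25 ng/ml the order was reversed, with 10613 counts in WT10 and 1833 in MUT3. Without the untreated MUT3 library the MALAT1 difference was -0.72 and no longer passed (adjusted p = 0.165, limma). Without both the untreated MUT3 library and WT10 at 25 ng/ml, the highest MALAT1 library of each clone, the difference of the slopes was 0.58 (adjusted p = 0.317, limma).

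The share of fragments that the counting assigned to no gene moved with both nuclear RNAs. This share can hold unspliced and intergenic RNA. Since the strandedness of the libraries is not given, it can also hold fragments counted as lying on the strand opposite to a gene. It was 56.6% in untreated WT10 and 58.74% in WT10 at 25 ng/ml, 58.84% in untreated MUT3 and 56.54% in MUT3 at 25 ng/ml, and 57.59% in untreated WT6 and 59.59% in WT6 at 25 ng/ml. Over the 15 libraries, as deviations from the mean of each clone, the Pearson correlation of this share with log2 counts was 0.90 for MALAT1 and 0.84 for NEAT1, and between 0.37 and 0.59 for the host genes. Of all genes, MALAT1 included, 0.0158% reached the value of MALAT1. These points share their libraries and their depth, so the correlation is a description, and the part of nuclear or unspliced RNA content in the MALAT1 and NEAT1 results was not tested. Fewer cells that make an RNA and less of it per cell cannot be told apart in these bulk libraries.

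The genes whose profiles were most like that of MALAT1, by the correlation of the deviations from the clone means over the 15 libraries, were RMRP (0.90), KCNQ1OT1 (0.88) and TFCP2 (0.87). RMRP encodes the RNA of RNase MRP, and KCNQ1OT1 is a nuclear antisense RNA of an imprinted locus. RMRP counted 265 in untreated MUT3 cells and 33.3, 18.8, 30.3 and 18.9 at the 4 doses, and it went from 13.0 untreated to 148 at 25 ng/ml in WT10. KCNQ1OT1 counted 113 in untreated MUT3 and between 38.5 and 56.6 in the treated libraries. For NEAT1 the most similar genes were PDDC1, CATSPER1 and ABHD14B (0.96 each), of which PDDC1 counted 1916 untreated and 2851 at 25 ng/ml in WT10.

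The snoRNA host genes moved mainly in WT6, and there most at 5 ng/ml. All 6 were above the untreated WT6 level at both 5 and 25 ng/ml, with a median change of 1.03 (log2) in the first of these libraries and 0.44 in the second, while at 1 and 2.5 ng/ml the median was -0.01 and 0.02.

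SNHG8, which hosts SNORA24, had the steepest slope of the hosts. It counted 1477, 1498 and 1439 at 0, 1 and 2.5 ng/ml in WT6 and 3605 and 2945 at 5 and 25 ng/ml. The last 2 libraries stood clear of the first 3, and the slope was 0.27 ± 0.06 (SE, adjusted p = 0.00306, limma). GAS5, whose introns carry SNORD44, SNORD74, SNORD78 and others and whose spliced RNA is known to build up when growth stops, counted 2984, 2655 and 2794 and then 5597 and 3980 (slope 0.14 ± 0.06 (SE), adjusted p = 0.0462, limma). SNHG12 counted 726, 779 and 750 and then 1217 and 1077 (slope 0.14 ± 0.04 (SE), adjusted p = 0.00797, limma).

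The other 3 hosts had the same shape but did not pass. SNHG5 counted 5300, 4996, 5450, 11718 and 7290 with increasing dose in WT6 (adjusted p = 0.0551, limma). SNHG1 counted 3101, 3007, 3189, 5311 and 3870 (adjusted p = 0.0657, limma). SNHG6 counted 1159, 1180, 1153, 2792 and 1533 (adjusted p = 0.132, limma). In each of them the library at 5 ng/ml was the highest of the 5, above that at 25 ng/ml, and the departure from a line in dose enters the spread of the fit. Without WT6 at 5 ng/ml all 8 genes had a slope in WT6 that passed, with 0.11 for GAS5, 0.23 for SNHG8 and 0.13 for SNHG12. Without WT6 at 25 ng/ml the 6 hosts passed and the nuclear RNAs did not, with 0.31 for GAS5, 0.44 for SNHG8 and 0.25 for SNHG12. Without both, none of the 8 passed. Of all genes, 62.4% passed in WT6 without its library at 5 ng/ml, 36.6% without that at 25 ng/ml and 1.44% without both. The slopes of GAS5, SNHG8 and SNHG12 without both were -0.06, -0.02 and 0.03. The call of GAS5 was the least stable of the 3, since it held in 3 of the 15 fits that each left out 1 library (adjusted p between 0.00236 and 0.116, limma), against 15 of 15 for SNHG8 and for SNHG12.

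In WT10 and MUT3 the host genes stayed within narrow ranges. GAS5 lay between 1733 and 1972 in WT10 and between 1932 and 2444 in MUT3. SNHG5 lay between 2714 and 3091 in WT10, and in MUT3 it was lower at every successive dose, from 3985 untreated to 3179 at 25 ng/ml, without passing the test. Over the 6 hosts the highest library held between 1.10 and 1.31 times the lowest in WT10, where the median gene spanned 1.31-fold, and between 1.14 and 1.27 times in MUT3, where the median gene spanned 1.15-fold. SNHG12 rested on the fewest reads of the 8, between 247 and 893 per library, so that a WT10 count of 293 had a 95% counting interval of 260 to 329.

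The WT6 slopes of the hosts were not shown to differ from those of WT10. The differences ran from 0.08 for SNHG6 (95% interval -0.15 to 0.31) to 0.19 for SNHG12 (95% interval 0.05 to 0.32, adjusted p = 0.0608, limma), and 0 of the 8 genes passed with limma and edgeR, while 14.4% of all genes passed. At an unadjusted p under 0.05 there were 2, MALAT1 and SNHG12, and DESeq2 called 1. Without WT6 at 5 ng/ml 3 passed.

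Transcript length moved with these libraries. The genes were put in 5 classes of equal size by the length of the canonical transcript. In WT6 at 5 ng/ml the class of the shortest transcripts (up to 1780 nt) had a median log2 change of 0.60 and that of the longest (from 5792 nt) one of -0.41, and at 25 ng/ml they had 0.58 and -0.45. In WT6 at 1 and 2.5 ng/ml and in all libraries of WT10 and MUT3 the same medians stayed between -0.08 and 0.06. GAS5 (768 nt), SNHG1 (1162 nt) and SNHG5 (1316 nt) belong to the shortest class, SNHG6 (1821 nt) and SNHG12 (1871 nt) to the next, and MALAT1 and NEAT1 to the longest. SNHG8 was placed in the longest class by its canonical transcript of 6166 nt, but the median length of its annotated transcripts, 489 nt, put it in the shortest.

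Once the trends with length and GC content were removed, 3 of the 8 genes passed in WT6. NEAT1 (0.39, adjusted p = 2.19e-05) and SNHG8 (0.36, adjusted p = 0.000604) kept their call and MALAT1 gained one (0.27, adjusted p = 0.0093, limma). The slopes of GAS5 (-0.02, adjusted p = 0.563) and SNHG12 (0.04, adjusted p = 0.193, limma) no longer passed. The log2 change of the 6 hosts at 5 ng/ml was then 0.14 for GAS5, 0.07 for SNHG1, 0.53 for SNHG5, 0.71 for SNHG6, 1.48 for SNHG8 and 0.44 for SNHG12. The value of SNHG8 was 1.29 before the removal, which treated it as a transcript of 6166 nt. With the median transcript length in place of the canonical one, NEAT1 and SNHG8 were the 2 genes that passed in WT6, and the slope of SNHG8 was 0.28. How much of the host change in WT6 belongs to RNA quality or library preparation was not tested.

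The levels of the clones differed before any doxycycline. Fitted at dose 0, MALAT1, GAS5, SNHG5, SNHG8 and SNHG12 were higher in WT6 than in WT10, where 59.6% of all genes differed. SNHG12 differed most, by 1.15 ± 0.17 on the log2 scale (SE, adjusted p = 2.38e-05, limma), with 726 counts in WT6, 354 in WT10 and 309 in MUT3. For SNHG5 the difference was 0.83 ± 0.24 (SE, adjusted p = 0.00735, limma), with 5300, 2963 and 3985 counts. NEAT1 counted 3294, 2885 and 2672 untreated, and its fitted levels were not shown to differ between WT6 and WT10 (0.08, 95% interval -0.28 to 0.44) or between WT10 and MUT3 (0.06, 95% interval -0.30 to 0.42).

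Within the set, the profiles of the hosts were more like each other than like that of MALAT1, with NEAT1 in between. The correlation of the deviations from the clone means over the 15 libraries was between 0.79 and 0.99 for the 15 pairs of hosts. MALAT1 had values between -0.02 and 0.21 with the hosts, and NEAT1 between 0.38 and 0.69. NEAT1 and MALAT1 had 0.65 with each other, below the 0.69 of NEAT1 and SNHG8. The genes most like the hosts included LSM3 (0.99 with GAS5), TXN (0.99 with SNHG1), SNRPE (0.98 with SNHG5), SELK (0.99 with SNHG6), ATP5H (0.99 with SNHG8) and MRPL14 (0.96 with SNHG12). The hosts spanned 1.68 to 2.5-fold in WT6, against 1.10 to 1.31-fold in WT10 and 1.14 to 1.27-fold in MUT3. Their values with each other and with these genes therefore rest mainly on WT6 at 5 and 25 ng/ml, where short transcripts were higher as a class.

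Reads on the snoRNAs themselves followed some hosts and not others. RefSeq places 27 snoRNAs inside the 6 host genes, of which 26 had a row in the table and 16 passed the filter. Their summed count in WT6 was 876 untreated, 859, 819 and 1038 at the next doses and 640 at 25 ng/ml, while the summed host count was 14748, 14114, 14774, 30239 and 20695. As a share of the host count this was 5.94% in untreated WT6, and 3.43% and 3.09% at its 2 highest doses. It lay between 4.10% and 5.38% in WT10 and between 4.18% and 4.77% in MUT3. By host, the snoRNAs inside GAS5 counted 381, 421 and 222 in WT6 at 0, 5 and 25 ng/ml, and those inside SNHG1 247, 199 and 152, so that both shares were lower in the 2 late libraries. The 4 snoRNAs inside SNHG12 counted 204, 327 and 214, and at 5 ng/ml their share of the host count (26.9%) was close to the untreated share (28.1%). The 2 inside SNHG5 counted 28.5, 51.8 and 23.7, and the 1 inside SNHG8 7.67, 27.2 and 24.9. Among the 16 tested, 5 fell with dose in WT6 and none rose, where 28.3% of all genes fell, and none passed in WT10 or MUT3. Without WT6 at 25 ng/ml none fell and 1 rose, in a fit in which 36.6% of all genes passed. SNORD74, in GAS5, counted 29.6 untreated and 9.97 at 25 ng/ml in WT6 (slope -0.38, adjusted p = 0.00703, limma), SNORD78, also in GAS5, 34.0 and 7.47 (slope -0.42, adjusted p = 0.00212), and SNORD28, in SNHG1, 19.7 and 3.74 (slope -0.47, adjusted p = 0.00972). In WT6 at 25 ng/ml 3 reads were worth 3.74, so that SNORD28 counted only 3 reads there. Mature snoRNAs are short and carry no poly(A) tail, so these few reads are no measure of the mature snoRNA.

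**Figure D2:**
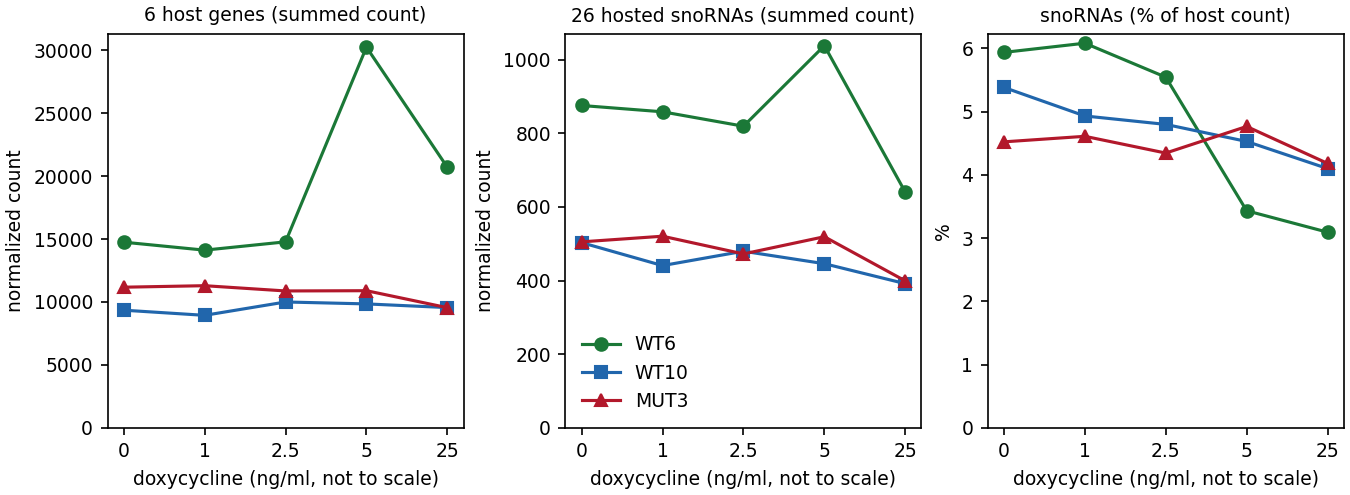
Summed normalized count of the 6 host genes (left) and of the 26 snoRNAs inside them (middle), and the second as a percentage of the first (right), against doxycycline (ng/ml, steps not to scale) in WT6 (circles), WT10 (squares) and MUT3 (triangles), 1 library per point. In WT6 the hosts reached 30239 at 5 ng/ml and the snoRNA share went from 5.94% to 3.09%.

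Further noncoding snoRNA hosts were also mostly higher in WT6. Of 14 listed, 12 had a row in the table and all 12 were tested. In WT6 8 rose and 1 fell, where 29.2% of all genes rose and 28.3% fell, with a median slope of 0.15 against 0.01 for all genes, and in WT10 and MUT3 none passed. The counts of 8 and 1 were the same without either late WT6 library. Of all genes, 62.4% passed without that at 5 ng/ml and 36.6% without that at 25 ng/ml. SNHG9 rose from 44.9 untreated to 218 at 25 ng/ml in WT6 (slope 0.48, adjusted p = 0.000142, limma), SNHG11 from 148 to 264 (slope 0.21, adjusted p = 0.00218) and SNHG3 from 734 to 1253 (slope 0.19, adjusted p = 0.00316). SNHG4 was the host that fell (slope -0.16, adjusted p = 0.0205, limma; named after its value was seen). Ribosomal protein genes, known for the pyrimidine start, rose in 58 of 77 cases in WT6 (29.2% of all genes) with a median slope of 0.16, and at 5 ng/ml 76 of 77 were above untreated WT6. In WT10 1 of the 77 fell and none rose. The median log2 change in WT6 at 5 and 25 ng/ml was 0.92 and 0.55 for ribosomal protein genes. It was 0.76 and 0.55 for the further hosts, and 0.60 and 0.58 for the class of the shortest transcripts. Whether these changes go with transcript length or with the start was not tested. Of 10 tested protein-coding snoRNA hosts, 3 rose and 3 fell in WT6, or 60.0% against 57.5% of all genes. NCL, which encodes nucleolin, fell from 42661 to 21972 in WT6 (slope -0.21, adjusted p = 1.86e-05) and from 23936 to 16591 in WT10 (slope -0.12, adjusted p = 0.00431, limma). EEF2, the translation elongation factor, fell in WT6 (-0.15, adjusted p = 0.00061), and TPT1 rose there (0.12, adjusted p = 0.0216, limma).

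Other nuclear or chromatin-linked lncRNAs did not share one direction. Of 12 listed, 10 had a row and 6 were tested. In WT6 3 of them rose and 2 fell, against 57.5% of all genes in either direction, and in WT10 none passed. Without WT6 at 25 ng/ml 2 rose and 1 fell, in a fit in which 36.6% of all genes passed. CYTOR (in the table as LINC00152) rose in WT6 (0.27, adjusted p = 0.00214), as did CRNDE (0.26, adjusted p = 0.00135), and OIP5-AS1 fell from 918 to 493 (-0.20, adjusted p = 0.000129, limma). HOTAIR, MEG3 and HOTAIRM1 had a mean of at most 0.0568 over the libraries.

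Genes for paraspeckle proteins fell in the wild type clones. Of 10 genes, 9 fell in WT6, where 28.3% of all genes fell, and 7 in WT10, where 9.83% did, and none passed in MUT3. Without WT6 at 25 ng/ml 2 of them fell in WT6, where 36.6% of all genes passed. All 10 fell without WT6 at 5 ng/ml, where 62.4% of all genes passed. Leaving out WT10 at 25 ng/ml, none passed in WT10. Only 0.0475% of all genes did there, so that this fit says little about these genes. SFPQ fell from 12845 untreated to 6316 at 25 ng/ml in WT6 (slope -0.23, adjusted p = 6.32e-05) and from 9507 to 5697 in WT10 (slope -0.16, adjusted p = 0.00272, limma), and counted 8179 and 8412 in MUT3. PSPC1 fell from 1978 to 904 in WT6 (-0.25, adjusted p = 9.77e-06) and from 1269 to 989 in WT10 (-0.08, adjusted p = 0.0433, limma). NUDT21, a 3′ end processing factor, fell from 2949 to 1416 in WT6 (-0.21, adjusted p = 0.000111) and from 3307 to 2348 in WT10 (-0.11, adjusted p = 0.0243, limma). The NEAT1 count was thus highest in the libraries of WT6 and WT10 in which these 3 messages were lowest. That count does not separate the 9 annotated NEAT1 transcripts (512 to 22743 nt), so it is no measure of the scaffold itself. Of 9 genes for nuclear speckle proteins, 6 fell in WT6 and 3 in WT10 (28.3% and 9.83% of all genes), and in either direction 66.7% and 33.3% passed against 57.5% and 20.0% of all genes. Among those that fell were THRAP3 in both (-0.24, adjusted p = 2.2e-05, and -0.12, adjusted p = 0.0128, limma) and SON (-0.25, adjusted p = 9.04e-05) and SRRM2 (-0.21, adjusted p = 0.00195) in WT6. The class of the longest transcripts had a median log2 change of -0.41 and -0.45 in WT6 at 5 and 25 ng/ml. The part of transcript length in the WT6 values of these lists was not tested. In the comparison of WT10 with MUT3, 2 of the 10 paraspeckle genes and none of the 9 speckle genes differed.

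The decay pathway that removes spliced host RNA was looked at from both sides. Of 16 factors of nonsense-mediated decay, 7 fell in WT6 and 2 in WT10, and none rose. The shares that fell, 43.8% and 12.5%, were above those of all genes that fell, 28.3% and 9.83%. They were below the shares of all genes that passed in either direction, 57.5% and 20.0%. Without WT6 at 25 ng/ml 4 fell and 2 rose in WT6, or 37.5% against 36.6% of all genes. SMG6, the endonuclease of the pathway, fell in WT6 (-0.14, adjusted p = 0.00327), as did UPF1, its central helicase (-0.14, adjusted p = 0.00683), which counted 5666 untreated and 3904 at 25 ng/ml (limma). Of 6 mRNAs known to be cleared by the pathway, 4 rose in WT6 (29.2% of all genes) and 2 in WT10 (10.2% of all genes). Without WT6 at 25 ng/ml 2 rose in WT6, or 33.3%, where 36.6% of all genes passed in either direction. Leaving out WT10 at 25 ng/ml, none rose in WT10, where only 0.0475% of all genes passed. ATF3, a stress-induced transcription factor, rose from 92.1 to 336 in WT6 (0.45, adjusted p = 0.000102) and from 111 to 343 in WT10 (0.41, adjusted p = 0.000931, limma), UPP1 rose in WT6 (0.24, adjusted p = 0.000161), and ATF4 rose there (0.22, adjusted p = 0.00036, limma). The 6 hosts did not pass in WT10, and whether the host counts go with the decay pathway was not tested. Of 8 genes for snoRNP proteins, NOP10 (0.37, adjusted p = 0.000165) and NHP2 (0.17, adjusted p = 0.00731) rose in WT6 and DKC1 fell (-0.09, adjusted p = 0.00628, limma), or 37.5% against 57.5% of all genes, and none passed in WT10 or MUT3. Without both WT6 at 5 and at 25 ng/ml no gene of any of these lists passed in WT6, where 1.44% of all genes still did.

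Genes that overlap the hosts on the opposite strand did not all move as the hosts did. PRSS12, next to SNHG8, fell in WT6 (slope -0.17, adjusted p = 0.0195, limma). C8orf45, next to SNHG6, counted 355 untreated and 890 at 5 ng/ml in WT6, where SNHG6 was also highest, and TRNAU1AP, next to SNHG12, rose in WT6 (0.14, adjusted p = 0.00596, limma). For SNHG6 and SNHG12 the counts of the pair therefore moved alike, and their separation was not tested.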

How the data were processed

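RNA of 15 libraries (3 clones at 5 doxycycline doses, grouped by the labels) was selected for poly(A) and sequenced as read pairs. Per the study's methods and the submitters' processing notes, the authors used STAR for alignment to hg19 and HTSeq 0.5.4 at default settings for counting, and divided the counts by DESeq size factors. The annotation and the strandedness of the libraries are not given in the sources used here. The deposited values are a normalized signal, reads divided by the size factor, of which 100% (tolerance 0.01) were whole multiples of what 1 read was worth in their library, so that whole reads were recovered. The 5 tallies of unassigned reads stayed out of the fits.

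Values were analysed as log2(normalized count + 1) with limma 3.58.1 (R 4.3.3) and vooma weights, in one fit that gave each clone its own intercept and its own slope on log2(dose + 1) (9 residual degrees of freedom), over the 12644 genes with a mean of at least 10 in each clone, with Benjamini-Hochberg adjustment and a threshold of 0.05. With 1 library per condition, the p-values measure the scatter of single libraries around a line in dose. On simulated counts of the 12644 genes the WT10 slope test recovered 99 of 100 genes with a slope of 0.4 and 73 of 100 with a slope of 0.2. It made 12 false calls. The simulated slopes were exact lines with a fixed dispersion and no shifts of whole libraries, so these rates need not hold for the real libraries. Alternatives were edgeR 4.0.16 and DESeq2 1.42.0 on the recovered reads, other filters, scalings, pseudocounts and dose scales, each clone alone, removal of length and GC trends, and leaving out libraries.

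Gene places and lengths came from GENCODE on GRCh37, matched by symbol (19556) or older symbol (1897). Starts of transcripts and the snoRNAs inside hosts came from RefSeq (GRCh38.p14). SNHG16, SNHG17, LINC-PINT and NORAD were not analysed here. Some genes of the lists and some overlapping genes are not reported here by name. The 8 genes and all gene lists were chosen with earlier results of these data known. Named beside them were RBM47, at most 3 genes per list (those with the largest absolute slope in WT6 or WT10 among those that passed there) and for each of the 8 genes the 3 with the most similar profile. Counting intervals (95%, exact Poisson) cover counting error only.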

Additional observations from a re-analysis of the deposited data

Results flagged for a closer look

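The dose slope of MALAT1 differed between clones. It was larger in WT10 than in MUT3 by 0.85 (limma interaction of clone and dose, adjusted p = 0.00303), and the mean wild type slope was larger than that of MUT3 by 0.72 (adjusted p = 0.000829, limma). In WT10 all 4 treated libraries were above the untreated one, and in MUT3 all 4 were below it.

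The dose slope of NEAT1 differed in the same 2 comparisons, by 0.26 between WT10 and MUT3 (adjusted p = 0.0378, limma) and by 0.31 between the mean of the wild type clones and MUT3 (adjusted p = 0.00265, limma). The 4 differences share the MUT3 libraries and are not independent of each other. Groups of 1 library allowed no check for outlying replicates.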

How the results depend on the processing

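No paired analysis was possible because each clone and dose had 1 library. Of 1912 values of single genes under other settings, 1761 kept their direction and side of the threshold, 96 lost the call, 52 gained one and 3 changed sign with a call on one side: the WT6 slope of GAS5 with length and GC trends removed (-0.0185), and those of GAS5 (-0.0575) and SNHG8 (-0.0192) without WT6 at 5 and 25 ng/ml. The removal of trends with median transcript lengths, the fits without pairs of libraries, and the counts of the gene lists without single libraries, were chosen after seeing the data.

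The number of the 8 genes that passed moved as follows. In WT6 it was 4, and became 2 with trends removed by median length, 2 on the untransformed dose, 1 in each clone fitted alone, 0 with log2 RBM47 as the covariate, 0 with any doxycycline against none, 0 without WT6 at 5 and 25 ng/ml, and 3 to 8 with 1 library left out. In WT10 it was 2, and became 0 with RBM47, any doxycycline, without the libraries at 25 ng/ml, or without untreated MUT3 and WT10 at 25 ng/ml, and 0 to 2 with 1 library left out. In MUT3 it was 0, also with 1 library left out, 3 with each clone alone (few residual degrees of freedom) and 1 without WT6 at 5 and 25 ng/ml. For the mean wild type slope against MUT3 it was 2, and became 0 under the same 4 settings as in WT10, 1 without WT6 at 5 and 25 ng/ml, and 1 to 7 with 1 library left out (7 without WT6 at 5 or at 25 ng/ml). For WT10 against MUT3 it was 2, and became 0 under those 4 settings, 1 on the untransformed dose, and 0 to 2 with 1 library left out. For WT6 against WT10 it was 0, and became 1 with DESeq2 and 0 to 3 with 1 library left out. For untreated WT10 against MUT3 it was 1, and became 2 with trends removed, 0 on the untransformed dose, 4 without WT6 at 5 and 25 ng/ml, 0 without untreated MUT3 and WT10 at 25 ng/ml, and 0 to 3 with 1 library left out. For untreated WT6 against WT10 it was 5, and became 2 without the libraries at 25 ng/ml and 3 to 7 with 1 library left out. Fewer libraries were fitted where some were left out, and otherwise the cause was not tested. The count of all genes that passed in WT10 ranged from 0 to 4915 over these settings.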
